A study of Homo sapiens with 6 samples.

Results

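The G2/M and mitosis genes are 60 genes that carry cells from the end of DNA replication through chromosome segregation to cell division, taken by their symbols from a list of cyclins, kinases, kinesins, kinetochore, condensin and cytokinesis proteins. All 60 were found among the 39282 genes of the deposited tables, and all 60 were among the 16855 genes that passed the filter on low counts. They were followed through 6 poly(A) RNA-seq libraries of 2 human ovarian tumour lines, TOV21G (an ovarian clear cell carcinoma line) and PA-1 (an ovarian teratocarcinoma line). Each line had 1 library with the lentiviral hairpin sh-MEX3A#1 (TRCN230492, hairpin 1) against MEX3A, which encodes an RNA-binding ubiquitin ligase, 1 with sh-MEX3A#2 (TRCN230494, hairpin 2) against MEX3A, and 1 with the scramble hairpin sh-Ctrl, here called the control. The lines were kept in different media. The knockdown group of a line therefore holds 2 libraries made with different reagents, and its control group holds 1 library, which carries a lentiviral hairpin too. Separate cultures are not stated in the labels, so the spread behind the p-values is that of these libraries and may be technical.

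Entry into mitosis is driven by CDK1 bound to cyclins A and B, and exit from it by the anaphase-promoting complex, which marks cyclin B and securin for destruction. Between these steps the spindle is built by microtubule motors, chromosomes are compacted by condensin, and kinetochores hold chromosomes to the spindle under the watch of a checkpoint. Most genes of this machinery are transcribed mainly in G2 and mitosis. Their promoters carry CCAAT boxes and a cell cycle homology region (CHR), which is bound by the MuvB core, either with B-MYB and FOXM1 as activators or, in the DREAM complex, with p130 and E2F4 as a repressor. The CDK inhibitor p21 favours DREAM. Their mRNA in a culture therefore depends both on how many cells are in G2 or mitosis and on how much each cell makes, and in bulk libraries the 2 cannot be told apart.

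The total expected count, RSEM's estimate of the reads or read pairs of all genes, was 14654628 to 16012602 in the TOV21G libraries and 15769163 to 19495162 in the PA-1 libraries. MEX3A had 40.1 and 33.1 CPM with hairpins 1 and 2, against 78.3 CPM in the control of TOV21G, where CPM is the count scaled to the TMM-adjusted library total. In PA-1 MEX3A had 41.2 and 54.9 CPM with hairpins 1 and 2, against 137 CPM in the control, and its log2 fold changes were -1.10 (SE 0.29) in TOV21G and -1.51 (SE 0.28) in PA-1. The pluripotency-associated LIN28B was at 0 in all 3 TOV21G libraries and had 192 and 226 CPM with hairpins 1 and 2, against 253 CPM in the control of PA-1. It is 1 of 10 teratocarcinoma markers, of which 5 were at 0 in each TOV21G library. In PA-1 4 of the 10 lay below the control with both hairpins, where 34% of all genes tested did. Another 4 lay above it with both, where 33.8% of all genes did. The labels call the source ovarian surface epithelium. Of 9 epithelial markers the keratins KRT8 and KRT18 led in both lines, while EPCAM was at 6.18 to 13.6 CPM in TOV21G and at 0.0607 to 0.102 CPM in PA-1. The 8 blood cell markers summed to 3.62 to 10.3 TPM (a level scaled for transcript length and library) in TOV21G and to 2.89 to 7.96 TPM in PA-1, with HBB at 0 in every library and 2 to 5 of the 8 markers at 0. The 4 endothelial markers summed to 0.43 and 1.14 TPM with the hairpins against 0.15 TPM in the TOV21G control, and to 66.8 and 119 TPM against 72.02 TPM in the PA-1 control.

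In TOV21G the mitosis genes were lower in both MEX3A knockdown libraries than in the control, at a median of 47.3% of the control level with hairpin 1 and 41.3% with hairpin 2. The median log2 fold change was -1.14, against 0.02 over all genes tested, and 59 of 60 genes lay below the control with both hairpins, where 31.9% of all genes tested did. At least 2-fold lower with both hairpins were 35 of 60 genes, against 3.36% of all genes tested. The 1 gene whose TOV21G libraries lay on either side of the control was KIF18A. In PA-1 the same genes stood much closer to the control, at medians of 86.8% with hairpin 1 and 83.7% with hairpin 2, with a median log2 fold change of -0.22 against 0 over all genes. In PA-1 50 of 60 genes lay below the control with both hairpins, where 34% of all genes tested did, 4 lay above it with both, where 33.8% of all genes did, and 0 were 2-fold lower with both, against 0.682% of all genes. The 2 differences of a line share its single control, so an error in that library moves all of them the same way.

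**Figure D1:**
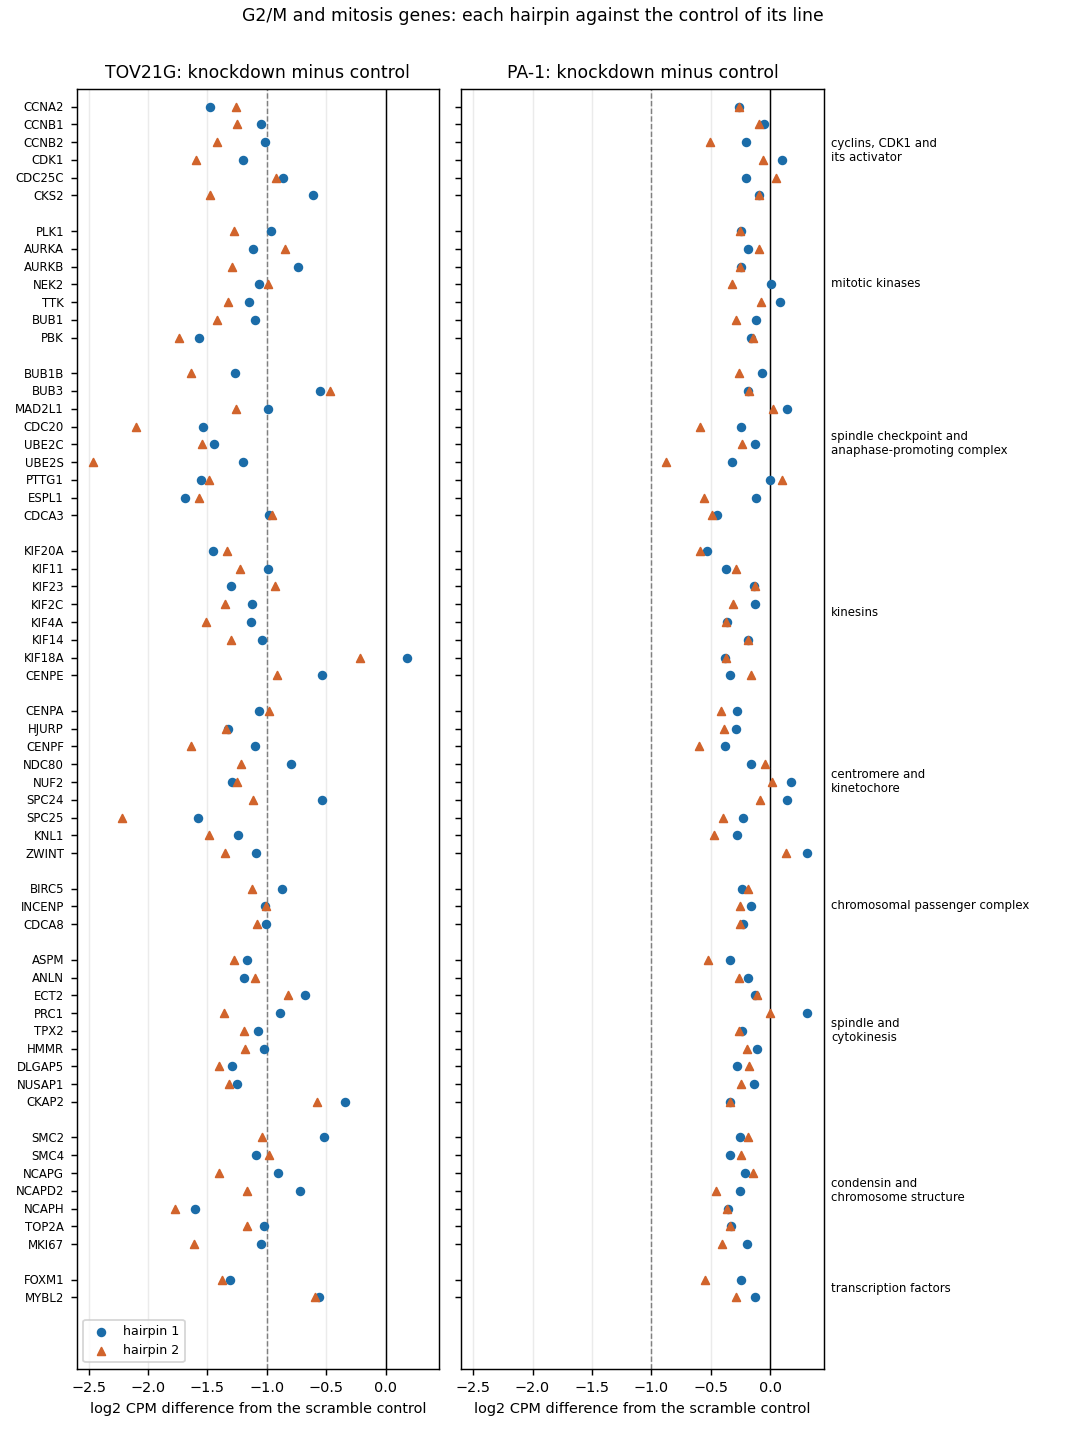
Difference in log2 CPM (prior count 2) of each MEX3A hairpin library from the scramble control of its line for the 60 genes, grouped by role, with TOV21G on the left and PA-1 on the right; circles are hairpin 1, triangles hairpin 2, and the dashed line marks a 2-fold lower level. In TOV21G all points lie left of 0 except KIF18A with hairpin 1, and 35 genes lie at or left of the dashed line with both hairpins, while in PA-1 no gene does.

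The test was edgeR's quasi-likelihood F test over all 16855 genes, in which the 2 hairpins of each line supply the spread and 2 residual degrees of freedom remain. None of the 60 genes passed an adjusted p of 0.05 in TOV21G (lowest edgeR adjusted p 0.382) or in PA-1 (lowest 1), and 0% of all genes did in either line. At an unadjusted edgeR p under 0.05, 54 of the 60 genes were lower in TOV21G, where 5.41% of all genes were, and 0 of 60 were in PA-1, where 0.392% of all genes were. DESeq2, run on the same counts and groups, called 28 of the 60 genes lower in TOV21G at an adjusted p under 0.05, against 1.1% of the genes to which it gave an adjusted p, and 0 of 60 in PA-1, against 0.0129%. Without TOV21G hairpin 1 edgeR called 48 of the 60 genes lower in TOV21G, where 4.81% of all genes passed, but that fit took its spread from the PA-1 hairpins alone and assumed that the lone TOV21G hairpin library varies as they do. Counted on the deposited TPM in place of CPM, 17 genes were at least 2-fold lower with both hairpins in TOV21G. Once the median of all genes was taken off 22 were, an alternative chosen after seeing the data. The share of all genes was not counted on TPM. Log2 fold changes below are knockdown over control from edgeR, each followed by an approximate standard error (SE), and the 2-fold counts are on CPM. Drops within a class are ranked by the hairpin nearer to the control.

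Cyclins, CDK1 and its regulators came first in the order of events. In TOV21G all 6 were lower with both hairpins, 4 of them at least 2-fold, and DESeq2 called CCNA2, CCNB1 and CDK1. CCNA2, the cyclin of S phase and early mitosis, had 31.3 and 36.4 CPM with hairpins 1 and 2, against 87.5 CPM in the control. CCNB1, the cyclin that brings CDK1 to full activity at mitotic entry, had 72.5 and 63.1 CPM with hairpins 1 and 2, against 151 CPM in the control. Both cyclins stood at about the same distance below the control with either hairpin, with log2 fold changes of -1.37 (SE 0.23) and -1.15 (SE 0.23). CDK1, the mitotic kinase itself, had 69.8 and 53.01 CPM with hairpins 1 and 2, against 160.2 CPM in the control. This was a log2 fold change of -1.38 (SE 0.27). In PA-1 CCNB1 had 187 and 181 CPM with hairpins 1 and 2, against 194 CPM in the control. The CDK1 libraries of PA-1 overlapped, at 145 and 129 CPM with hairpins 1 and 2, against 135 CPM in the control, with a log2 fold change of 0.03 (SE 0.28). CKS2, a small subunit that helps CDK1 bind its substrates, showed the smallest drop of the class in TOV21G, at 99.5 and 54.4 CPM with hairpins 1 and 2, against 152 CPM in the control, and its hairpins lay far apart. CCNB2 (-1.21, SE 0.29) and the phosphatase CDC25C, which removes inhibitory phosphates from CDK1 (-0.92, SE 0.32), were lower in TOV21G without a DESeq2 call.

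The 7 mitotic kinases lay below the TOV21G control with both hairpins, with log2 fold changes of -1.66 to -0.98. PLK1, which drives centrosome maturation and many later steps, had 30.4 and 24.5 CPM with hairpins 1 and 2, against 59.5 CPM in the control of TOV21G. In PA-1 PLK1 had 99.02 and 98.3 CPM with hairpins 1 and 2, against 117 CPM in the control. AURKA, the spindle pole kinase, had 30.7 and 36.95 CPM with hairpins 1 and 2, against 66.8 CPM in the control of TOV21G. In PA-1 AURKA had 70.4 and 74.96 CPM with hairpins 1 and 2, against 80.2 CPM in the control. For both kinases the knockdown libraries lay below the control in each line, by about 2-fold in TOV21G and by far less in PA-1. PBK, a MAPKK-like kinase active in mitosis, had the largest drop of the class, at 21.8 and 19.3 CPM with hairpins 1 and 2, against 64.8 CPM in the control. Its log2 fold change was -1.66 (SE 0.24), and DESeq2 called it along with TTK (-1.24, SE 0.24) and BUB1 (-1.25, SE 0.26), kinases that recruit the checkpoint to kinetochores. AURKB, the kinase of the chromosomal passenger complex, had the smallest drop, with 12.3 and 8.33 CPM with hairpins 1 and 2, against 20.6 CPM in the control. NEK2, which splits centrosomes, had -1.04 (SE 0.27).

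The class of spindle checkpoint genes and genes that act with the anaphase-promoting complex gave the lowest class median in TOV21G, -1.504 over 9 genes. Of these 6 were at least 2-fold lower with each hairpin, and DESeq2 called 5 (BUB1B, CDC20, UBE2C, PTTG1 and ESPL1). The class holds no core subunit of the complex, and the core genes, given further below, had a TOV21G median of -0.16. CDC20, the activator that the checkpoint holds back, had 33.7 and 22.8 CPM with hairpins 1 and 2, against 97.95 CPM in the control. That is a log2 fold change of -1.79 (SE 0.33), and the levels in PA-1 were 104 and 81.5 CPM with hairpins 1 and 2, against 123 CPM in the control. UBE2C, the ubiquitin-conjugating enzyme that starts chains for the complex, had a log2 fold change of -1.504 (SE 0.23). UBE2S, the enzyme that extends them, had 50.6 and 21.1 CPM with hairpins 1 and 2, against 117 CPM in the control, so that its hairpins differed more than those of the other 59 genes, and its fold change of -1.70 (SE 0.54) carried a large error. PTTG1, the securin that blocks separase until anaphase, had 26.04 and 27.2 CPM with hairpins 1 and 2, against 76.6 CPM in the control of TOV21G. In PA-1 PTTG1 had 59.3 and 63.5 CPM with hairpins 1 and 2, against 59.2 CPM in the control. Its partner ESPL1, the separase that cuts cohesin, had the largest drop of the class, with 15.7 and 17 CPM with hairpins 1 and 2, against 50.9 CPM in the control of TOV21G. The ESPL1 levels in PA-1 were 45.99 and 33.8 CPM with hairpins 1 and 2, against 49.9 CPM in the control. BUB3 had the smallest drop of the class, and its difference from its partners was not tested. This checkpoint adaptor had 118 and 125 CPM with hairpins 1 and 2, against 173 CPM in the control. Its log2 fold change was -0.51 (SE 0.22), while its partner BUB1B, the checkpoint protein BUBR1, had -1.45 (SE 0.27). MAD2L1, the checkpoint protein that binds CDC20, had -1.12 (SE 0.25), and CDCA3, a mitotic entry factor that the complex degrades, had -0.98 (SE 0.26).

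Of the 8 kinesins, the motors that build the spindle and move chromosomes along it, 7 lay below the control with both hairpins in TOV21G and 4 at least 2-fold. KIF20A, a motor of the central spindle, had 19.6 and 21.4 CPM with hairpins 1 and 2, against 53.98 CPM in the control of TOV21G. In PA-1 KIF20A had 65.04 and 62.3 CPM with hairpins 1 and 2, against 93.8 CPM in the control. It gave the lowest unadjusted edgeR p of the 60 genes in PA-1, 0.0576, with a log2 fold change there of -0.56 (SE 0.23). KIF11, the bipolar spindle motor (-1.11, SE 0.24), and KIF4A, a chromosome arm motor (-1.32, SE 0.26), were the others DESeq2 called. KIF23, KIF2C and KIF14 had log2 fold changes of -1.11, -1.24 and -1.17, and CENPE, a kinetochore motor, had -0.71 (SE 0.27). KIF18A, the motor that dampens chromosome oscillation at the plate, was the exception, with 39.03 and 29.6 CPM with hairpins 1 and 2, against 34.4 CPM in the control. Its TOV21G log2 fold change was -0.004 (SE 0.28), and its sign changed with the scaling, from -0.004 by TMM to 0.005 by RLE. In PA-1 KIF18A had 36.6 and 36.9 CPM with hairpins 1 and 2, against 47.7 CPM in the control, a log2 fold change of -0.38 (SE 0.27) beside a class median of -0.29. Exons of KIF18A (chr11:28020620-28108308, minus strand, GENCODE 29 on GRCh38) overlap exons of METTL15 on the other strand, which had 50.3 and 43.7 CPM with hairpins 1 and 2, against 42.9 CPM in the control of TOV21G. The strand setting of the counting is not given in the sources used here, and the part of METTL15 reads in the KIF18A value was not tested.

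Centromere and kinetochore genes were lower in TOV21G without exception, 6 of 9 at least 2-fold with both hairpins. SPC25, 1 of the 4 subunits of the NDC80 complex that grips microtubules, had the lowest log2 fold change of all 60 genes, -1.88 (SE 0.35), from 6.99 and 4.43 CPM with hairpins 1 and 2, against 21.1 CPM in the control. Its complex partners NDC80, NUF2 and SPC24 had -1.0005 (SE 0.28), -1.28 (SE 0.25) and -0.80 (SE 0.35) as log2 fold changes, and whether the subunits differ was not tested. SPC24 had the smallest drop of the class, with 10.8 and 7.19 CPM with hairpins 1 and 2, against 15.7 CPM in the control. CENPF, a large outer kinetochore protein and the most counted of the class, had 157 and 108 CPM with hairpins 1 and 2, against 337 CPM in the control of TOV21G. In PA-1 CENPF had 530.2 and 456 CPM with hairpins 1 and 2, against 690.3 CPM in the control. KNL1, the scaffold on which the checkpoint assembles, had -1.36 (SE 0.25), ZWINT, its binding partner, -1.22 (SE 0.25), HJURP, the chaperone of the centromeric histone, -1.35 (SE 0.23), and that histone, CENPA, -1.04 (SE 0.28). DESeq2 called CENPF, SPC25, KNL1 and HJURP.

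The chromosomal passenger complex corrects wrong attachments, and its 3 non-kinase subunits gave nearly the same TOV21G values, with log2 fold changes from -1.05 to -0.99. BIRC5, the survivin subunit, had 25.4 and 21.3 CPM with hairpins 1 and 2, against 46.5 CPM in the control of TOV21G. In PA-1 BIRC5 had 93.4 and 96.6 CPM with hairpins 1 and 2, against 109.8 CPM in the control. CDCA8, the borealin subunit, had 15.9 and 15.1 CPM with hairpins 1 and 2, against 32.2 CPM in the control of TOV21G. INCENP, the scaffold, had -1.01 (SE 0.22), and DESeq2 called none of the 3. AURKB, their kinase, had -0.999 (SE 0.31).

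Spindle and cytokinesis genes were lower in TOV21G with both hairpins in 9 of 9 cases, and DESeq2 called 5 of them. DLGAP5, which stabilises kinetochore fibres, had the largest drop, with 29.9 and 27.6 CPM with hairpins 1 and 2, against 73.4 CPM in the control of TOV21G and 143 and 153 CPM with hairpins 1 and 2, against 173 CPM in the control of PA-1. TPX2, the activator of AURKA (-1.14, SE 0.22), the spindle pole protein ASPM (-1.22, SE 0.23), NUSAP1, a microtubule binder (-1.29, SE 0.23), and anillin, the scaffold of the contractile ring encoded by ANLN (-1.15, SE 0.22), were the others called. HMMR and PRC1, the bundler of the central spindle, had -1.11 (SE 0.23) and -1.11 (SE 0.30). ECT2, the exchange factor that starts furrowing, was lower by less, -0.75 (SE 0.23). The smallest drop belonged to CKAP2, a microtubule-associated protein, at 104 and 88.1 CPM with hairpins 1 and 2, against 132 CPM in the control of TOV21G and 229 and 229 CPM with hairpins 1 and 2, against 289 CPM in the control of PA-1. Its log2 fold changes in TOV21G and PA-1, -0.46 (SE 0.24) and -0.34 (SE 0.24), were the closest to each other of all 60 genes.

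Condensin and chromosome structure genes were lower in TOV21G in 7 of 7 cases, by unequal amounts. NCAPH, the kleisin of condensin I, had 12.99 and 11.6 CPM with hairpins 1 and 2, against 39.8 CPM in the control. Its edgeR log2 fold change was -1.69 (SE 0.23), and its DESeq2 adjusted p, 0.00164, was the lowest of the 60 genes. NCAPG and NCAPD2, the other subunits particular to condensin I, had -1.14 (SE 0.29) and -0.93 (SE 0.29). DESeq2 also called SMC4, TOP2A and MKI67. SMC4 and SMC2, the ATPases that condensin I shares with condensin II, had -1.04 (SE 0.22) and -0.76 (SE 0.30), SMC2 from 73.3 and 50.9 CPM with hairpins 1 and 2, against 105 CPM in the control. TOP2A, the topoisomerase that untangles sister chromatids, had 152 and 138 CPM with hairpins 1 and 2, against 310.0 CPM in the control of TOV21G. In PA-1 TOP2A had 605 and 602 CPM with hairpins 1 and 2, against 759 CPM in the control. MKI67, the Ki-67 protein that coats mitotic chromosomes and is used in pathology as a proliferation marker, had 308 and 208 CPM with hairpins 1 and 2, against 637 CPM in the control of TOV21G. In PA-1 MKI67 had 522 and 453 CPM with hairpins 1 and 2, against 599 CPM in the control. In both genes the PA-1 knockdown libraries lay below the control by far less than those of TOV21G.

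The transcription factors of the set had unequal drops in TOV21G, and whether they differ was not tested. FOXM1, an activator of G2/M genes, had 32.7 and 31.2 CPM with hairpins 1 and 2, against 81.2 CPM in the control of TOV21G. In PA-1 FOXM1 had 136 and 111 CPM with hairpins 1 and 2, against 162 CPM in the control. Its log2 fold changes were -1.35 (SE 0.25) in TOV21G and -0.39 (SE 0.25) in PA-1, and DESeq2 called it in TOV21G. MYBL2, which encodes B-MYB, had 53.3 and 52.1 CPM with hairpins 1 and 2, against 78.7 CPM in the control of TOV21G. In PA-1 MYBL2 had 149.7 and 134 CPM with hairpins 1 and 2, against 164 CPM in the control. Those are log2 fold changes of -0.58 (SE 0.23) in TOV21G and -0.20 (SE 0.23) in PA-1. The TOV21G log2 fold change of MYBL2 was the 4th closest to 0 of the 60 genes, after KIF18A, CKAP2 and BUB3.

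Levels between genes were compared in TPM, which accounts for transcript length. In the TOV21G knockdown libraries the 60 genes had a median of 26.7 TPM with hairpin 1 and 17.9 TPM with hairpin 2, against 47.7 TPM in the control, and in PA-1 88.2 and 74.4 TPM against 91.1 TPM. The range in the TOV21G control ran from CDC25C at 7.13 TPM to CKS2 at 832 TPM, and in the PA-1 control from ESPL1 at 17.8 TPM to CKS2 at 466 TPM. Together the 60 genes held 2669 and 1868 TPM in the TOV21G knockdown libraries against 4615 TPM in the control, and 6278 and 5622 TPM in the PA-1 knockdown libraries against 6671 TPM in the control. Between the controls, 52 of 60 genes had a lower TPM in TOV21G than in PA-1, where 55.9% of all genes tested did. The median ratio of TOV21G to PA-1 was 0.535, against 0.903 over all genes tested with at least 1 TPM in both controls. That comparison rests on 1 library a line and has no test. PBK was the clearest exception, at 79.6 TPM in the TOV21G control against 24.9 TPM in the PA-1 control.

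**Figure D2:**
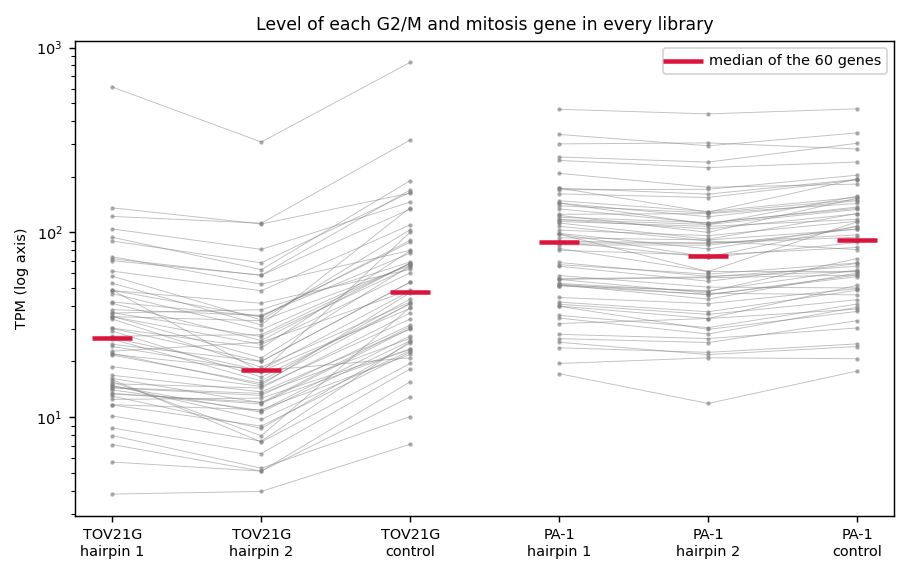
TPM (log axis) of each of the 60 genes in the 6 libraries, with the libraries of a line joined by grey lines and the median of the genes as a red bar. In TOV21G the medians are 26.7 and 17.9 TPM with hairpins 1 and 2 against 47.7 TPM in the control, and in PA-1 they are 88.2 and 74.4 TPM against 91.1 TPM.

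The difference between the lines was tested as the TOV21G log2 fold change minus that of PA-1. The median difference over the 60 genes was -0.94, against -0.01 over all genes tested. For 59 of 60 genes both TOV21G differences lay below both PA-1 differences, which held for 28.4% of all genes, and the exception was again KIF18A. At an unadjusted edgeR p under 0.05, 28 of the 60 genes had the lower value in TOV21G, against 2.5% of all genes, but the adjusted p was 1 for every one of them. DESeq2 also called 0 of 60, against 0.0892% of all genes. The median difference over the 60 genes stayed negative when 1 hairpin library was dropped. It was -1.07 when TOV21G kept only its hairpin 2 and -0.85 when it kept only its hairpin 1. When PA-1 kept only its hairpin 2 the median was -0.89, and when it kept only its hairpin 1 it was -0.97. In these fits the group with 1 library left had no spread of its own, so counts at an unadjusted p are left out here. PTTG1 came first by unadjusted edgeR p (0.00475), with a difference of -1.58 (SE 0.33). PBK came next, with a difference of -1.5032 (SE 0.36). PTTG1, MAD2L1, NUF2 and ZWINT lay below the control with both hairpins in TOV21G and above it with both in PA-1, as 7.29% of all genes tested did. Across the 60 genes the log2 fold changes of the lines had a Pearson r of 0.12 and a Spearman rho of 0.19, given as a description, since the genes share the same 6 libraries.

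**Figure D3:**
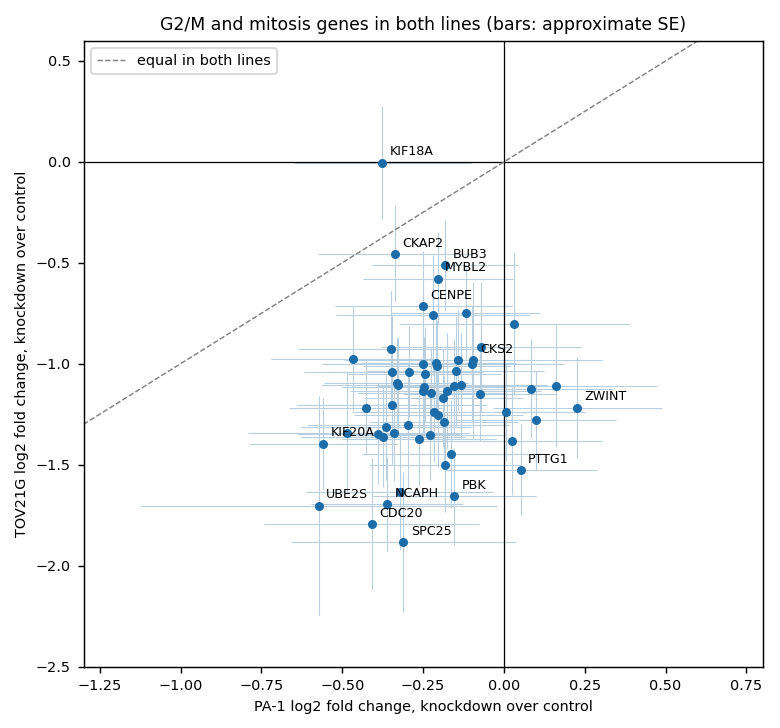
Log2 fold change of knockdown over control in TOV21G (vertical axis) against that in PA-1 (horizontal axis) for the 60 genes, with approximate standard errors as bars and equality as a dashed line. Of the 60 genes 59 lie below the line, with KIF18A above it and CKAP2, BUB3 and MYBL2 nearest to it from below.

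The hairpins were compared within each line. In TOV21G 46 of 60 genes were lower with hairpin 2 than with hairpin 1, where 51.6% of all genes tested were, with a median difference of -0.19 in log2 CPM. MEX3A itself was at 42.3% of the control with hairpin 2 and at 51.2% with hairpin 1 in TOV21G. In PA-1 41 of 60 genes were lower with hairpin 2, where 48.3% of all genes were, with a median of -0.07, and there MEX3A was at 40% of the control with hairpin 2 and at 30% with hairpin 1. The hairpins of TOV21G were within 0.5 log2 of each other for 51 of 60 genes, and the share of all genes tested was not counted. UBE2S, CKS2 and SPC25 were furthest apart, with differences of hairpin 2 minus hairpin 1 of -1.26, -0.87 and -0.64.

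Other genes of the machinery showed how far the pattern reached. For the TOV21G counts that follow, 31.9% of all genes tested lay below the control with both hairpins and 3.36% at least 2-fold. An unadjusted edgeR p under 0.05 with a lower level held for 5.41% of all genes tested. DESeq2 called 1.1% of the genes to which it gave an adjusted p lower. Of 34 further mitosis genes known to vary over the cell cycle, 33 lay below the TOV21G control with both hairpins, 22 at least 2-fold, with a median of -1.29 and 14 called by DESeq2. Among them were the spindle protein CKAP2L (-1.59, SE 0.25) and lamin B1, a nuclear envelope protein (LMNB1, -1.68, SE 0.27). Of 30 further kinetochore and centromere genes, 25 lay below, 7 at least 2-fold, with a median of -0.74 and 0 DESeq2 calls, where 16 had an unadjusted edgeR p under 0.05. Lowest by that p were SKA1, a subunit of a microtubule-binding ring (-1.47, SE 0.26), and SGO2, a protector of cohesion (-1.17, SE 0.23). The 16 genes of the anaphase-promoting complex core and its cofactors, whose mRNAs hardly vary over the cycle, had a median of -0.16, 9 below the control with both hairpins and 0 at least 2-fold. Its subunits with the lowest edgeR p were ANAPC15, with 10.4 and 10.2 CPM with hairpins 1 and 2, against 15.3 CPM in the control, and ANAPC7, with 61.4 and 50.99 CPM with hairpins 1 and 2, against 70.2 CPM in the control. Cohesin and its regulators, 10 genes, had a median of -0.30, with 6 below the control with both hairpins and 0 at least 2-fold. The ring subunits SMC1A (-0.81, SE 0.25) and RAD21 (-0.53, SE 0.22) were first by edgeR p. Above 0 were NIPBL (0.16, SE 0.25), STAG2 (0.16, SE 0.29), WAPL (0.14, SE 0.24) and MAU2 (0.02, SE 0.24). Of the condensin II subunits NCAPG2 was lower, with -1.21 (SE 0.23) and a DESeq2 call, while NCAPD3 had -0.83 (SE 0.42) and NCAPH2 had -0.52 (SE 0.30). The 25 genes of G1/S and replication had a median of -1.19, with 24 below, 12 at least 2-fold and 9 called by DESeq2, among them RRM2, a ribonucleotide reductase subunit (-1.64, SE 0.22), and E2F2, an S-phase transcription factor (-2.21, SE 0.37). Lower levels in TOV21G were thus not limited to genes of mitosis. In PA-1 these 6 lists had medians between -0.30 and 0.04, and neither edgeR nor DESeq2 called any of their genes there. The medians were -0.30 for G1/S and replication, -0.24 for the further mitosis genes and -0.21 for cohesin, beside -0.22 for the 60 genes. They were -0.16 for condensin II, -0.13 for the further kinetochore genes and 0.04 for the complex core. All 10 cohesin genes lay below the PA-1 control with both hairpins, where 34% of all genes tested did.

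**Figure D4:**
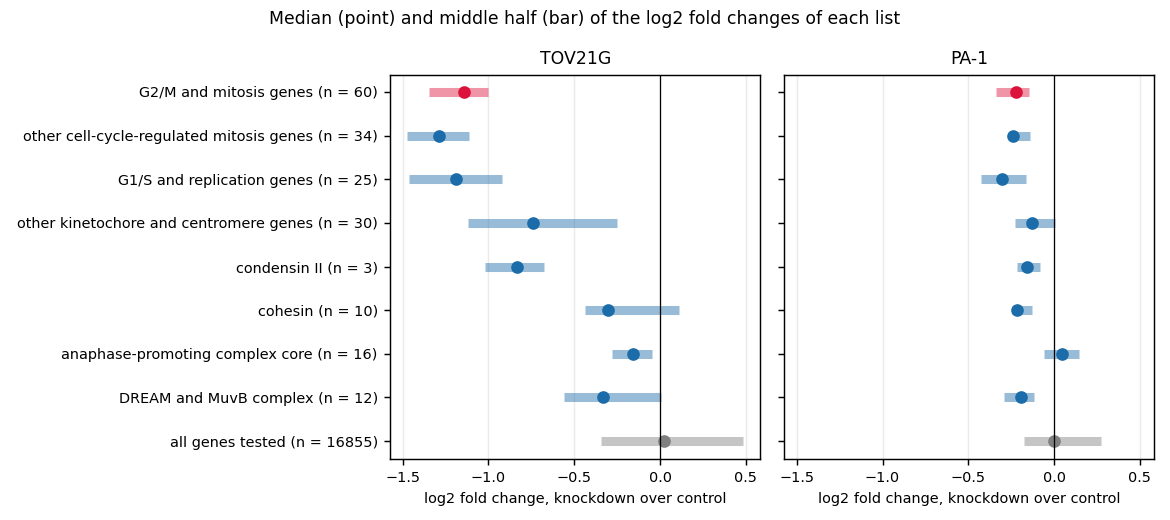
Median (point) and quartiles (bar ends) of the log2 fold changes of knockdown over control for the 60 genes (red), 7 other gene lists (blue) and all genes tested (grey), in TOV21G on the left and PA-1 on the right. The 60 genes have a median of -1.14 in TOV21G and -0.22 in PA-1, while the anaphase-promoting complex core has -0.16 and 0.04.

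The regulators of these genes were read in the same libraries. CDKN1A, which encodes p21, had 1103 and 2168 CPM with hairpins 1 and 2, against 692 CPM in the control of TOV21G. In PA-1 CDKN1A had 35.4 and 105 CPM with hairpins 1 and 2, against 18.9 CPM in the control. Its knockdown libraries thus lay above the control in both lines, with log2 fold changes of 1.24 (SE 0.77) in TOV21G and 1.89 (SE 0.80) in PA-1. The 12 genes of the DREAM and MuvB complex had medians of -0.33 in TOV21G and -0.20 in PA-1. In TOV21G 8 of them lay below the control with both hairpins, where 31.9% of all genes tested did. Above it with both lay 2, E2F4 and its dimer partner TFDP2, where 5275 of all 16855 genes tested did. E2F4 had 35.1 and 33.5 CPM with hairpins 1 and 2, against 26.6 CPM in the control of TOV21G, and TFDP2 had 156 and 269 CPM with hairpins 1 and 2, against 135 CPM in the control. RBL2, which encodes p130, had 45.8 and 65.4 CPM with hairpins 1 and 2, against 92.8 CPM in the control of TOV21G. LIN9, a MuvB subunit, had 9.82 and 8.53 CPM with hairpins 1 and 2, against 16.3 CPM in the control of TOV21G. RBL1, the p107 pocket protein, had 18.4 and 11.3 CPM with hairpins 1 and 2, against 30.7 CPM in the control of that line, and LIN52, another MuvB subunit, had 9.69 and 17.7 CPM with hairpins 1 and 2, against 17.99 CPM in the control, so that its hairpin 2 library was level with the control. Values that can follow RNA quality or composition differed as well. MALAT1, a nuclear RNA, had 9429 and 18455 CPM with hairpins 1 and 2, against 4315 CPM in the control of TOV21G. NEAT1, another, had 1133 and 1068 CPM with hairpins 1 and 2, against 361 CPM in the control, and ribosomal protein genes took 4.54% and 4.24% of TOV21G counts with the hairpins against 4.99% in the control. In PA-1 MALAT1 had 1303 and 1113 CPM with hairpins 1 and 2, against 909.5 CPM in the control, NEAT1 had 270.5 and 273 CPM with hairpins 1 and 2, against 119 CPM in the control, and the ribosomal share was 4.80% and 5.02% against 5.53%. Fibroblast markers, 7 genes with COL1A1, COL1A2 and THY1 in the lead, summed to 212 and 197 TPM against 79.0 TPM in the TOV21G control and to 147 and 194 TPM against 91.9 TPM in the PA-1 control, with DCN at 0 to 0.03 TPM in PA-1 and PDGFRA at 0.02 to 0.39 TPM in TOV21G. The 9 epithelial markers summed to 592 and 493 TPM against 368 TPM in the TOV21G control and to 512 and 669.6 TPM against 445 TPM in the PA-1 control, with KRT7 at 0 in PA-1. The 7 clear cell carcinoma markers given here, led by SPP1, summed to 4879.6 and 7052 TPM against 10586 TPM in the TOV21G control and to 1941 and 1746 TPM against 579 TPM in the PA-1 control. The part of these differences in the lower mitosis genes was not tested.

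Promoter sequences were read from RefSeq, in windows of 300 bases from 250 before to 50 after a transcript start on GRCh38.p14, to see what the genes share beyond their levels. The table held 61 windows for 51 of the 60 genes, and AURKA, BUB3, TTK, PBK, UBE2C, KNL1, BIRC5, TPX2 and FOXM1 had no entry in it. The motifs searched, on both strands, were the CHR as TTTGAA or TTCGAA, the CCAAT box as CCAAT, and an E2F site as TTTCCCGC, TTTCGCGC, TTTGCCGC or TTTGGCGC. The B-type cyclins CCNB1 and CCNB2, CDK1, PLK1, CDC20 and BUB1 are shown as well-known genes of the set, and KIF18A and CKAP2, chosen after their values were seen, because they departed most from it. Capitals mark the motif matches, and each sequence runs 5′ to 3′ on the strand of its gene.
CCNB1 (chr5:69166900-69167199, plus strand): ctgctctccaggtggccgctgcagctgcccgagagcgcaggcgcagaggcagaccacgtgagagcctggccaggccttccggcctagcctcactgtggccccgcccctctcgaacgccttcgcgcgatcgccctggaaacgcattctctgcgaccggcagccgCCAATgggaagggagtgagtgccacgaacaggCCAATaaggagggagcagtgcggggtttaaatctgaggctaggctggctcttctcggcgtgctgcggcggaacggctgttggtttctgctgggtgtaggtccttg
CCNB2 (chr15:59104896-59105195, plus strand): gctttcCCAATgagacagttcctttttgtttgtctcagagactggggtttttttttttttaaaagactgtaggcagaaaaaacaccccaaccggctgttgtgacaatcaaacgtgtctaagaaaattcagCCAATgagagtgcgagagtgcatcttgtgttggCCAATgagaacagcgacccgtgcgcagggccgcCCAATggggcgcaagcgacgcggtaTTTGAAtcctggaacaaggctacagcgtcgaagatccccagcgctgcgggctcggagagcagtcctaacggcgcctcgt
CDK1 (chr10:60778228-60778527, plus strand): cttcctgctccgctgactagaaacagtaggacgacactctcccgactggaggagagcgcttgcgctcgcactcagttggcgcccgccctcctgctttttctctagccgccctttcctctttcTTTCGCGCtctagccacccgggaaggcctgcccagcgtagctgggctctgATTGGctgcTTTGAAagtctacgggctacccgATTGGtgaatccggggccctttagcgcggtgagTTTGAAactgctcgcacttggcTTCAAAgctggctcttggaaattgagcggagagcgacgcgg
PLK1 (chr16:23678639-23678938, plus strand): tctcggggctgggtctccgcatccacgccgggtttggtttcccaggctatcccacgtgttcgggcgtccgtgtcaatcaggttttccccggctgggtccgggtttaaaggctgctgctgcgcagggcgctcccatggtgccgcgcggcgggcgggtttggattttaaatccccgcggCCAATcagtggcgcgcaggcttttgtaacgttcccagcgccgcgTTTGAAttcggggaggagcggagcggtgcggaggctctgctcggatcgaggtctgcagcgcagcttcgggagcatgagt
CDC20 (chr1:43358731-43359030, plus strand): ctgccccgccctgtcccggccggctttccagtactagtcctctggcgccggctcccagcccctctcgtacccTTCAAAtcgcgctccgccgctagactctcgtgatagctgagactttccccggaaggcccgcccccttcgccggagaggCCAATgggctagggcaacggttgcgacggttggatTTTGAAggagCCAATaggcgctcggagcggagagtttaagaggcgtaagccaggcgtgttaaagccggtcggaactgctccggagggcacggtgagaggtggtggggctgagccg
BUB1 (chr2:110678014-110678313, minus strand): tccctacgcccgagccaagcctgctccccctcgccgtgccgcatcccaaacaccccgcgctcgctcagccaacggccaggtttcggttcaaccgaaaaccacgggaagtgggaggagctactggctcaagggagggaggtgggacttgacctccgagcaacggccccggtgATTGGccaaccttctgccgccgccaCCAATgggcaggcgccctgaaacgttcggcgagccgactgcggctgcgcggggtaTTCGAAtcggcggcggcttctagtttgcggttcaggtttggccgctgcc
KIF18A (chr11:28108107-28108406, minus strand): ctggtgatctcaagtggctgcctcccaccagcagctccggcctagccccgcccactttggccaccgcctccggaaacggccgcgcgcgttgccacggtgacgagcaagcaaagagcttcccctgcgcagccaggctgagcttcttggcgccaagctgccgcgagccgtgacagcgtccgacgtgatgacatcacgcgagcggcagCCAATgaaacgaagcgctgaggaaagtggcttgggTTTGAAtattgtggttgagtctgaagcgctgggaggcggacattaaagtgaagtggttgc
CKAP2 (chr13:52455738-52456037, plus strand): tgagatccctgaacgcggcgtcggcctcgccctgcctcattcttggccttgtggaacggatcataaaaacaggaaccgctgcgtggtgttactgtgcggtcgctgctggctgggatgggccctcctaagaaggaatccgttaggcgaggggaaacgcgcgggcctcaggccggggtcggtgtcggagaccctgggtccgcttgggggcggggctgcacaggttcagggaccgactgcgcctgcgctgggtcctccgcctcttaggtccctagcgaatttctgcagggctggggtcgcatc

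With the first base of the transcript as position 1, the CCNB2 window has its CHR at -29 to -24 and 4 CCAAT boxes upstream, the nearest at -54 to -50. PLK1 has the same CHR position, -29 to -24, with 1 CCAAT box at -73 to -69. CDC20 has a CHR at -65 to -60 with a CCAAT box on either side and a second CHR further upstream, CDK1 has 3 CHR matches and an E2F match, and BUB1 has the TTCGAA form at 2 to 7. The CCNB1 window has 2 CCAAT boxes and that of CCNA2, not printed, has 1, and neither has a CHR in the letters searched. Other letters for the CHR were not searched, so a CHR written otherwise would be missed. KIF18A has both motifs, a CHR at -10 to -5 and a CCAAT box at -45 to -41, in the same order as CCNB2, although its level in TOV21G did not follow the others. CKAP2 has none of the letters searched in its window, and the same holds for MYBL2, CENPE and KIF2C. The TOV21G log2 fold changes of these genes were -0.46 for CKAP2, -0.58 for MYBL2, -0.71 for CENPE and -1.24 for KIF2C.

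Over all 61 windows, 68.9% held a CHR, against 16.4% of all 35116 windows in the table and 12.3% of the 18148 windows of genes tested. A CCAAT box was in 73.8%, against 34.6% and 34.4%, and 2 or more were in 45.9%, against 10.8% and 11.7%. A CHR together with at least 2 CCAAT boxes was in 36.1%, against 1.91% of all windows and 1.63% of those of genes tested. The E2F letters were in 6.56%, against 3.31% and 4.61%. The windows of the anaphase-promoting complex core held a CHR in 4 of 28 cases and those of cohesin in 2 of 12. Some genes have more than 1 window, and counted by gene 38 of 51 had a CHR and 40 of 51 a CCAAT box. The CHR matches lay close to the start, with 23% of the windows holding one in the 25 bases before it, and the CCAAT boxes upstream of them, with 45.9% of windows holding one between -75 and -51. Among the 51 genes the median TOV21G log2 fold change was -1.13 for the 38 with a CHR match and -1.15 for the 13 without. It was -1.16 for the 40 with a CCAAT box against -1.04 for the 11 without. The 13 may include genes whose CHR has letters that were not searched. Whether a CHR goes with the size of the drop was not tested. These matches are letters in a window and not mapped binding sites.

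**Figure D5:**
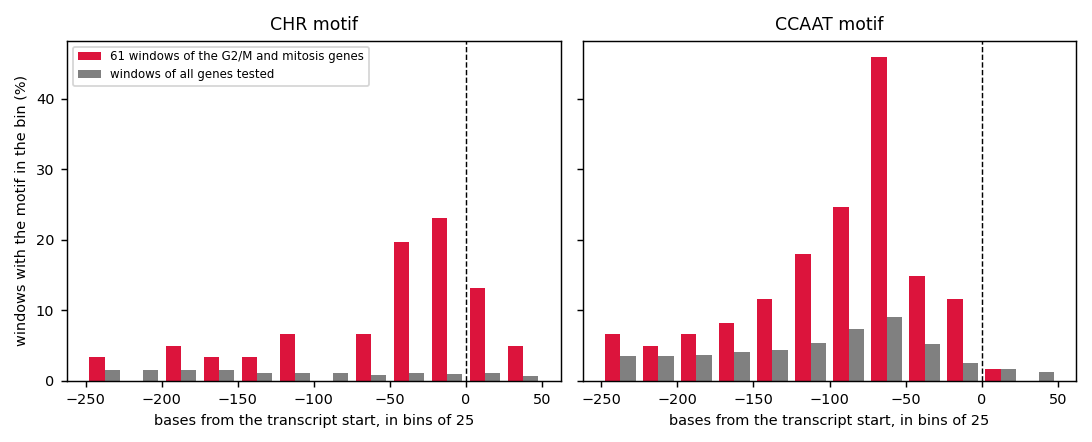
Share of promoter windows (%) with a CHR match (left) or a CCAAT match (right) starting in each bin of 25 bases, by distance in bases from the transcript start (dashed line), for the 61 windows of the G2/M and mitosis genes (red) and the windows of all genes tested (grey). The CHR share peaks at 23% in the bin just before the start and the CCAAT share at 45.9% between -75 and -51, where the windows of all genes tested have 0.915% and 8.97%.

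Reads shared with other genes limit some single values. In GENCODE 29, exons of 20 of the 60 genes overlap exons of a gene on the other strand, and for 17 of them that gene is in the deposited tables, as with CCNA2 and EXOSC9, KIF20A and CDC23, or FOXM1 and ITFG2. The pseudogene UBE2CP5 held 39 to 94 counts a library, up to 29.1% of the sum with UBE2C, and UBE2C and UBE2CP5 together had 21.1 and 21.7 CPM with hairpins 1 and 2 in TOV21G against 49.4 CPM in the control. AURKAP1 held at most 18 counts, KIF4B at most 1, and PTTG2 and PTTG3P 0.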

How the data were processed

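Poly(A) RNA-seq was done on 6 libraries. The authors deposited a gene table per library with RSEM expected counts (estimated counts of reads or read pairs per gene, not normalized) and TPM (a level per transcript length, scaled to a fixed total), per the file headers. FPKM, in the same deposited tables per the file headers, was not used. The submitters' processing notes name cutadapt 1.12, STAR 2.5.3a, RSEM 1.2.31, edgeR 3.26.8 and the build hg38; the strand setting of the counting is not given in the sources used here. RNA had a quality number above 6.8, per the labels' protocols.

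Expected counts were rounded to whole numbers. Genes were filtered with edgeR's filterByExpr, scaled by TMM and tested with edgeR 4.0.16 (quasi-likelihood F test, R 4.3.3) in 1 fit over the 4 groups of line and hairpin type, with Benjamini-Hochberg adjustment over all genes tested and a threshold of 0.05. Groups came from the labels, with hairpins 1 and 2 as the 2 replicates of a knockdown group and 1 control a line. The standard error is the log2 fold change over the square root of F and is approximate. Differences of single libraries used log2 CPM and added a prior count of 2. DESeq2 1.42.0 was the alternative test, and other scalings, filters, prior counts, deposited TPM, a block for the hairpin number, each line alone and each hairpin library left out were also tried. The scripts were tested on simulated data. RefSeq promoters of GRCh38.p14 and GENCODE 29 gave sequences and exon overlaps.

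The members and lists were chosen with earlier results of these data known. Given in every library are CCNB1, CDK1, PLK1, AURKA, CDC20, BIRC5, TOP2A, MKI67, FOXM1 and, per role, the genes with the largest and the smallest drop in TOV21G, ranked by the smaller of the 2 hairpin differences; other lists give those with the lowest edgeR p in TOV21G, and further genes were added after their values were seen. Some further genes are not reported here.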

Additional observations from a re-analysis of the deposited data

Results flagged for a closer look

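In the set, 4 genes lay on opposite sides of the control in the lines, below it with both hairpins in TOV21G and above it with both in PA-1. That is 4 of 60, a share no higher than the 7.29% of all genes tested that did so, and PTTG1 with hairpin 1 in PA-1 was only 0.0026 log2 CPM above its control. The TOV21G log2 fold change minus that of PA-1 was -1.58 (SE 0.33) for PTTG1 (securin), -1.44 (SE 0.37) for ZWINT (a kinetochore protein), -1.38 (SE 0.36) for NUF2 (an NDC80 complex subunit) and -1.21 (SE 0.36) for MAD2L1 (a checkpoint protein). PTTG1 had 26.04 and 27.2 CPM with hairpins 1 and 2, against 76.6 CPM in the control of TOV21G. In PA-1 PTTG1 had 59.3 and 63.5 CPM with hairpins 1 and 2, against 59.2 CPM in the control. ZWINT had 33.2 and 27.6 CPM with hairpins 1 and 2, against 70.7 CPM in the control of TOV21G. In PA-1 ZWINT had 69.7 and 61.7 CPM with hairpins 1 and 2, against 56.1 CPM in the control. NUF2 had 10.9 and 11.2 CPM with hairpins 1 and 2, against 26.8 CPM in the control of TOV21G. In PA-1 NUF2 had 39.01 and 35.1 CPM with hairpins 1 and 2, against 34.6 CPM in the control. MAD2L1 had 33.5 and 27.8 CPM with hairpins 1 and 2, against 66.8 CPM in the control of TOV21G. In PA-1 MAD2L1 had 126 and 116 CPM with hairpins 1 and 2, against 114 CPM in the control. The difference was tested as an interaction in edgeR, where the adjusted p was 1 for each of them and the unadjusted p was 0.00475 for PTTG1, 0.0105 for ZWINT, 0.0113 for NUF2 and 0.0194 for MAD2L1.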

How the results depend on the processing

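The direction of the result in TOV21G held under every scaling, filter and prior count tried, with a median log2 fold change between -1.17 and -1.13 outside the fits that leave a library out, and the number of genes passing a test did not. It was 0 of 60 in TOV21G by edgeR with TMM, RLE or library totals, with any filter and in TOV21G alone, 28 by DESeq2, and 1 with the replicate block. Leaving out 1 hairpin library at a time gave 0 to 48 in TOV21G, with 48 without TOV21G hairpin 1, where the spread comes from the PA-1 hairpins (biological coefficient of variation 0.164 in PA-1 alone and 0.387 in TOV21G alone). In PA-1 and for the difference between lines the count was 0 in every fit. The number at least 2-fold lower with both hairpins in TOV21G was 17 with deposited TPM and 22 with TPM relative to the median of all genes. With the other scalings and prior counts it was 28 to 35. Of all genes tested 3.36% passed with the main scaling, and their share was not counted under the other settings. In the 150 bases nearest the start, 59% of windows held a CHR, 60.7% a CCAAT box and 1.64% the E2F letters, against 5.17%, 22% and 2.29% of the windows of genes tested, so that the E2F share lay below that of the genes tested.

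Single genes near 0 changed sign. The log2 fold change of KIF18A in TOV21G was 0.0051 with RLE and with DESeq2, 0.0084 with library totals, 0.0088 with the filter of 1 CPM and 0.0017 with the line alone, and it ran from -0.218 to 0.1776 when a hairpin was left out. That of TTK in PA-1 was -0.0088 with RLE and with DESeq2. When a PA-1 hairpin was left out, TTK ran from -0.0742 to 0.0833, CDK1 from -0.056 to 0.1058, CDC25C from -0.2031 to 0.0503, SPC24 from -0.0835 to 0.1428, PRC1 from -0.0022 to 0.3085 and NEK2 from -0.3182 to 0.005, all in PA-1. The cause was not tested. Of the other values of single genes, 1829 kept their direction and side of the threshold and 77 passed it.

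The block used the hairpin number, which marks a shared reagent and not a batch. Deviations of same-numbered hairpins from their group means had a correlation of 0.236 over all genes. The block left edgeR calls of 21 lower and 15 higher genes in TOV21G and 13 higher in PA-1, where the fit without it had 0, at an unadjusted p under 0.05 for 912 lower and 700 higher genes in TOV21G. A control could not be left out, since its line then has no fold change, and 2 residual degrees of freedom limit what the test can call.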
